A study of Mus musculus with 16 samples.

Results

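Homeostatic microglia genes are transcripts that the resting immune cells of the brain hold at a high level. The 9 genes described here are P2ry12, P2ry13, Gpr34, Cx3cr1, Csf1r, Siglech, Tmem119, Sall1 and Aif1, and each was taken as the row of the count table that carries its symbol. All 9 were found among 55487 gene identifiers, each in a single row, and all 9 passed the filter on low counts with 18609 genes in all. The RNA came from brain tissue of 16 female mice, which fell into 4 groups of 4. CETPtg mice carry the human CETP gene under its own promoter, which gives them a plasma lipid transfer protein that mice lack. In APPtg/CETPtg mice this gene was combined with human APP carrying the Swedish and Indiana mutations, a transgene that the Thy1 promoter drives in neurons. Mice of both genotypes had a C57/bl6 background and ate a diet with 1% cholesterol from 11 weeks of age, and they were injected daily for 11 weeks with evacetrapib, an inhibitor of CETP, at 30 mg/kg or with its vehicle. Mice S1 to S4 and A to D were the CETPtg mice given vehicle and evacetrapib, and S5 to S8 and E to H the APPtg/CETPtg mice given the same, and values are listed in that order. All 4 groups thus carry the CETP transgene and the cholesterol diet, and mice without the transgene were not analysed here.

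Microglia settle the brain in early development and survey it with motile processes. Their resting state is held by CSF1 and IL-34 acting on the receptor CSF1R, by TGF-beta, and by transcription factors such as PU.1 and SALL1. Near amyloid plaques they are known to lower many of these genes and to raise Trem2, Apoe, Cst7 and Itgax. In the peer review record of the study, the authors report that staining of brain sections detected no plaques. They consider the young age of the mice the likely reason. In bulk tissue a level depends on how many microglia a sample holds and on how much of the transcript each cell carries, and fewer cells of a type and less RNA per cell cannot be told apart.

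Counts per mouse summed to between 28626139 and 37709734 in vehicle-treated CETPtg mice, 33684250 and 46800787 in evacetrapib-treated CETPtg mice, 21866883 and 55453789 in vehicle-treated APPtg/CETPtg mice, and 21391335 and 25854334 in evacetrapib-treated APPtg/CETPtg mice. The highest total belonged to the vehicle-treated APPtg/CETPtg mouse S8, which also stood apart from the other 3 mice of its group in several of the 9 genes, and calls between the genotypes that are lost without S8 are named. The labels give each library an Illumina number made of a letter and a number, and do not say what it stands for. Its number part has no value in common between the genotypes, and its letter part has none in common between the treatments, so each cannot be told apart from the group it goes with. Levels are CPM, the counts of a gene as a share of the library's total per 1000000, with totals scaled by the trimmed mean of M-values (TMM). A gene was called changed where the adjusted p did not exceed 0.05 and the difference reached 5%, from the quasi-likelihood test of edgeR with Benjamini-Hochberg adjustment over all genes tested.

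The 9 genes were transcribed at moderate levels, with between 83 and 7090 counts per mouse. Divided by exon length, the mean level over the 16 mice was highest for Csf1r, at 19.4 ± 1.67 CPM per kb (SD, n = 16). Tmem119 followed at 11.8 ± 1.46 CPM per kb, Cx3cr1 at 11.5 ± 0.899 CPM per kb and P2ry12 at 10.2 CPM per kb (8.73 to 11.6). The order of Tmem119 and Cx3cr1 was not fixed, since Tmem119 was the higher of the pair in 8 of 16 mice. Sall1 lay at 7.96 ± 2.26 CPM per kb, P2ry13 at 4.28 ± 0.37, Siglech at 3.82 ± 0.288, Gpr34 at 3.77 ± 0.466 and Aif1 at 2.47 ± 0.49 CPM per kb. Siglech exceeded Gpr34 in 9 of 16 mice, and P2ry12 exceeded Sall1 in 12 of 16 mice, so these neighbours did not separate beyond their spread. Each of the other 5 steps in the order held in 15 or 16 of the 16 mice.

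Other microglial transcripts were present beside them, such as Fcrls, an Fc receptor-like gene, which lay between 16.4 and 25.1 CPM. Transcripts of the white blood cells that unperfused tissue could hold were near 0, with Ccr2 of monocytes at most at 0.557 CPM and S100a8 and S100a9 of neutrophils at most at 0.151 and 0.371 CPM. The red cell transcript Hbb-bs reached 34.1 to 129 CPM.

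**Figure D1:**
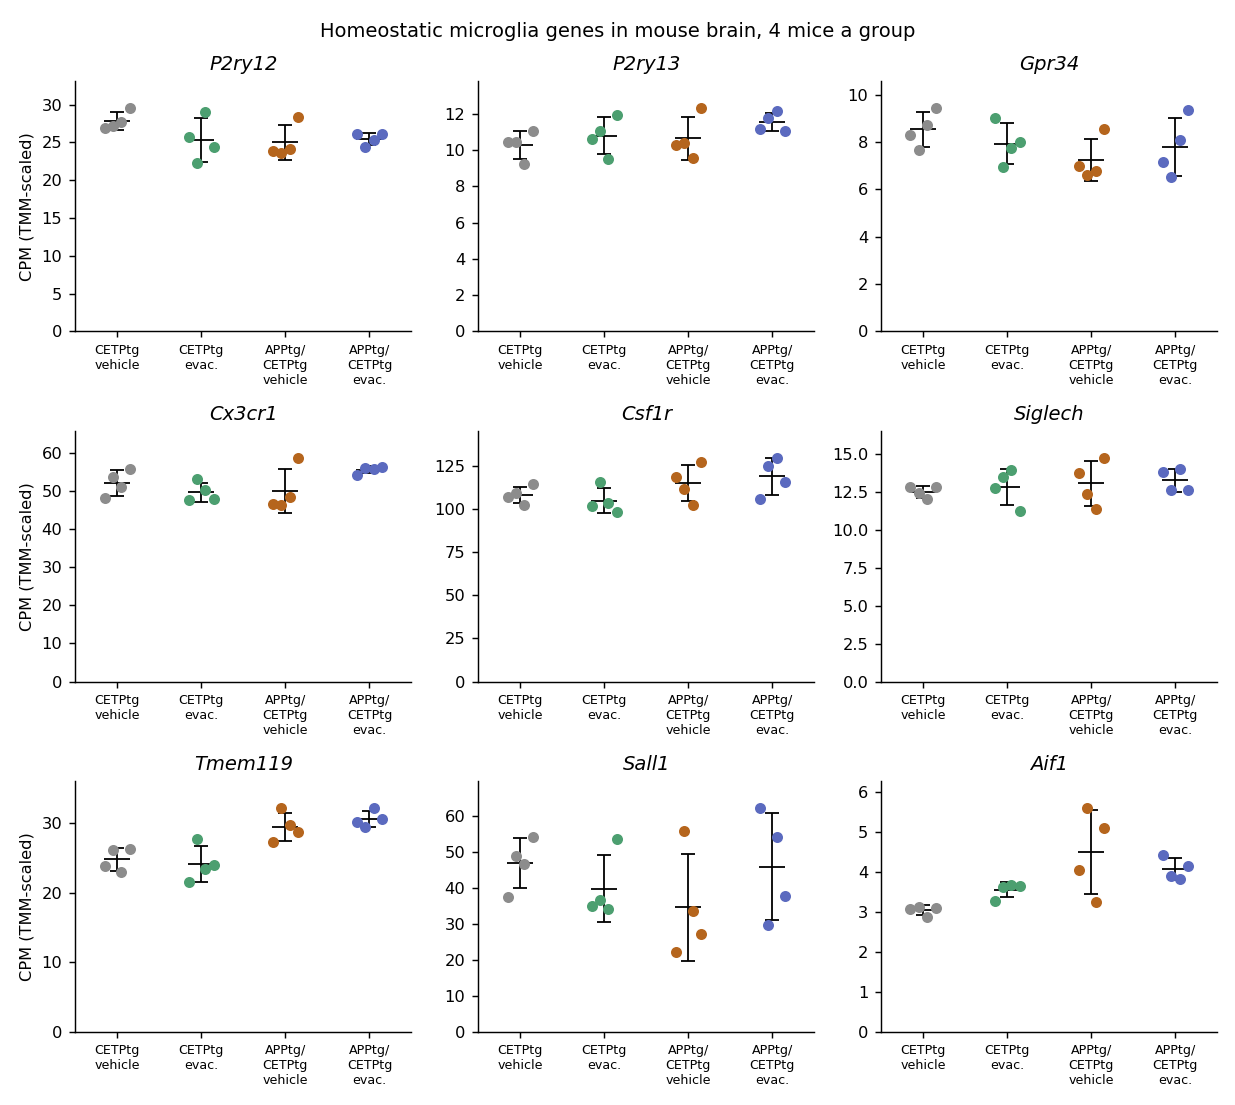
Level of each of the 9 genes in each mouse in TMM-scaled CPM, by genotype and treatment, with vertical axes that start at 0. Points are mice (4 a group), and black bars give the mean and SD. Both APPtg/CETPtg groups lie above the CETPtg group of the same treatment for Tmem119 and Aif1, and Sall1 spreads widely in every group.

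P2ry12, P2ry13 and Gpr34 encode receptors of the P2Y12-like family. P2RY12 senses ADP and steers microglial processes toward injury, P2RY13 also binds ADP, and GPR34 responds to lysophosphatidylserine. P2ry12 (chr3:59216272-59262871) and P2ry13 (chr3:59207892-59210882) are neighbours on the minus strand of chromosome 3 in GRCm38, and both overlap Med12l, a gene on the opposite strand. The sequence just before each start is shown because these genes share a locus and a cell type. From RefSeq on GRCm38.p6, 120 bases on the minus strand are given 5′ to 3′ up to the base before the start, with GAGGAA and AGGAAG, the purine-rich letters that PU.1 is known to bind, in capitals on either strand. The stretches are chr3:59262986-59263105 for P2ry12 and chr3:59210883-59211002 for P2ry13. The RefSeq start of P2ry12 lies upstream of its range given above, which came from GENCODE.
P2ry12: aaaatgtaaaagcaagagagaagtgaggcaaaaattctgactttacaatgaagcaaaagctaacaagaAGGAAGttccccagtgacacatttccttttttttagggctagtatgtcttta
P2ry13: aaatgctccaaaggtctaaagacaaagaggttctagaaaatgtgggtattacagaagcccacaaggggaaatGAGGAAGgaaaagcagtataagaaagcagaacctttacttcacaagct

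The match begins 52 bases before the start in P2ry12, and the overlapping pair of matches begins 48 bases before the start in P2ry13. Of the 9 genes, 6 have a promoter window of 300 bases in the table used, and 5 of these 6 hold GAGGAA or AGGAAG in at least 1 window. Sall1 has 3 windows, 1 of them with a match, and the window of Cx3cr1 has none. Of 32851 such windows over all genes, 46% hold one of these letters on either strand, so a match is common and describes only the sequence.

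P2ry12 was measured at 26.9, 27.2, 27.7 and 29.6 CPM in vehicle-treated CETPtg mice and at 25.7, 22.2, 29.0 and 24.4 CPM in evacetrapib-treated ones. Vehicle-treated APPtg/CETPtg mice had 23.9, 23.6, 24.1 and 28.4 CPM, and evacetrapib-treated ones had 26.1, 24.4, 25.3 and 26.1 CPM. The 3 lower mice of the vehicle-treated APPtg/CETPtg group lay below every vehicle-treated CETPtg mouse, and mouse S8 was the fourth. P2ry13 lay between 9.23 and 12.3 CPM and Gpr34 between 6.54 and 9.44 CPM, and their groups overlapped in every comparison of 4 against 4 mice. Gpr34 (chrX:13632089-13640858) lies within Cask on the opposite strand and shares no exon base with it.

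Cx3cr1 (chr9:119901616-120069879) encodes the receptor of fractalkine, a chemokine that neurons present to microglia. Its level was 48.2, 53.7, 51.0 and 55.9 CPM in vehicle-treated CETPtg mice and 47.8, 53.1, 50.3 and 48.0 CPM in evacetrapib-treated ones. Its values in APPtg/CETPtg mice were 46.7, 46.3, 48.6 and 58.8 CPM under vehicle and 54.2, 56.0, 55.9 and 56.5 CPM under evacetrapib. The evacetrapib-treated APPtg/CETPtg mice formed a tight group above all evacetrapib-treated CETPtg mice, and 3 of the 4 vehicle-treated APPtg/CETPtg mice lay below them, with S8 above.

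Csf1r (chr18:61100598-61132149) encodes the receptor for CSF1 and IL-34, on which microglia depend for survival. It ranged from 98.6 to 130 CPM, with means of 108 ± 4.88 and 105 ± 7.5 CPM in CETPtg mice under vehicle and evacetrapib and of 115 ± 10.5 and 119 ± 10.6 CPM in APPtg/CETPtg mice (SD, n = 4 each). Its exons share 873 bases, or 15.1% of their length, with Hmgxb3 on the opposite strand, which was itself at 54.0 to 69.4 CPM, and the strand setting of the counting is not given in the sources used here. Siglech (chr7:55768178-55778925), a sialic acid-binding lectin that separates microglia from most macrophages, ranged from 11.2 to 14.7 CPM.

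Tmem119 (chr5:113793729-113800516) encodes a membrane protein used as a marker that blood-derived macrophages mostly lack. Its level was 23.8, 26.1, 22.9 and 26.3 CPM in vehicle-treated CETPtg mice and 21.5, 27.7, 23.3 and 24.0 CPM in evacetrapib-treated ones. Its values in APPtg/CETPtg mice were 27.3, 32.1, 29.7 and 28.8 CPM under vehicle and 30.1, 29.4, 32.1 and 30.5 CPM under evacetrapib. Every APPtg/CETPtg mouse lay above every CETPtg mouse of the same treatment, and mouse B, the highest CETPtg mouse, was the sole one to reach the range of the APPtg/CETPtg mice.

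Aif1 (chr17:35170991-35176068), known by its protein IBA1, encodes a calcium-binding protein of the cytoskeleton in microglia and other macrophages. It was the lowest of the 9 per length, at 3.06, 3.12, 2.87 and 3.1 CPM in vehicle-treated and 3.26, 3.63, 3.66 and 3.63 CPM in evacetrapib-treated CETPtg mice. The APPtg/CETPtg mice had 4.04, 5.59, 3.24 and 5.08 CPM under vehicle and 4.42, 3.9, 3.83 and 4.13 CPM under evacetrapib. The vehicle-treated APPtg/CETPtg mice were the most spread, from 3.24 to 5.59 CPM, where the vehicle-treated CETPtg mice had an SD of 0.117 CPM. Since Aif1 was called between the genotypes, the 120 bases on the minus strand before its RefSeq start are shown in the same way. They are chr17:35176053-35176172 and hold 1 match, read on the other strand, next to that start. The range given above for Aif1, from GENCODE, reaches past the RefSeq start, and the match lies inside it.
Aif1: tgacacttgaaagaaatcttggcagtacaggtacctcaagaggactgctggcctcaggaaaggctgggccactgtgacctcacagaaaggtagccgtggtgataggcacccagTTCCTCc

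The first comparison asked whether evacetrapib moved these genes. Over both genotypes, 0 of the 9 genes were called with edgeR, where 0.0107% of all genes tested were called. None of the 9 had an unadjusted p under 0.05, and the Wald test of DESeq2 and limma-voom also called 0. The differences were small. Their log2 fold changes ran from -0.06 for P2ry12 to 0.09 for P2ry13, with a median of 0.03 beside -0.00148 over all genes tested.

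The intervals give the changes that these data do not exclude. For Csf1r the log2 fold change was 0.00156 with a 95% interval from -0.10 to 0.11, and for Tmem119 it was 0.00489 with an interval from -0.10 to 0.11. Cx3cr1 stood at 0.04 (-0.07 to 0.15), P2ry12 at -0.06 (-0.17 to 0.05), P2ry13 at 0.09 (-0.04 to 0.22), Siglech at 0.03 (-0.09 to 0.15) and Gpr34 at -0.01 (-0.19 to 0.17). The widest intervals belonged to Aif1, from -0.18 to 0.26, and to Sall1, from -0.30 to 0.46.

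Within CETPtg mice edgeR, DESeq2 and limma-voom each called 0 of the 9 genes, beside 0% of all genes with edgeR, and 0 had an unadjusted p under 0.05. Within APPtg/CETPtg mice the 3 tools also called 0, beside 0.043% of all genes, and 1, Cx3cr1, had an unadjusted p under 0.05. Its log2 fold change there was 0.15 ± 0.07 (SE, 4 against 4 mice), with an adjusted p of 0.548 from edgeR. Without mouse S8 it was 0.24, with an adjusted p of 0.106.

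The groups of 4 mice did not overlap between the treatments for 1 of the 9 genes in CETPtg mice, beside 3.92% of all genes. This gene was Aif1, at 0.22 ± 0.14 on the log2 scale (SE, adjusted p 0.855 from edgeR). In APPtg/CETPtg mice the groups overlapped for all 9 genes, beside 4.29% of all genes whose groups did not. In APPtg/CETPtg mice Aif1 had a log2 fold change of -0.14 ± 0.14 (SE), and of -0.07 without S8.

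Whether the evacetrapib effect differed between the genotypes was tested next, and 0 of the 9 genes were called with edgeR, beside 0% of all genes, and DESeq2 and limma-voom called 0 as well. One gene, Cx3cr1, had an unadjusted p under 0.05 for it, with a log2 difference of 0.21 ± 0.10 (SE) and an adjusted p of 0.709. The log2 difference was largest in size for Sall1, at 0.65 with a 95% interval from -0.06 to 1.36, and it was -0.37 for Aif1, with an interval from -0.77 to 0.04. Without mouse S8 these log2 differences were 0.31 for Cx3cr1, 0.54 for Sall1 and -0.29 for Aif1, and 0 of the 9 were called.

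**Figure D2:**
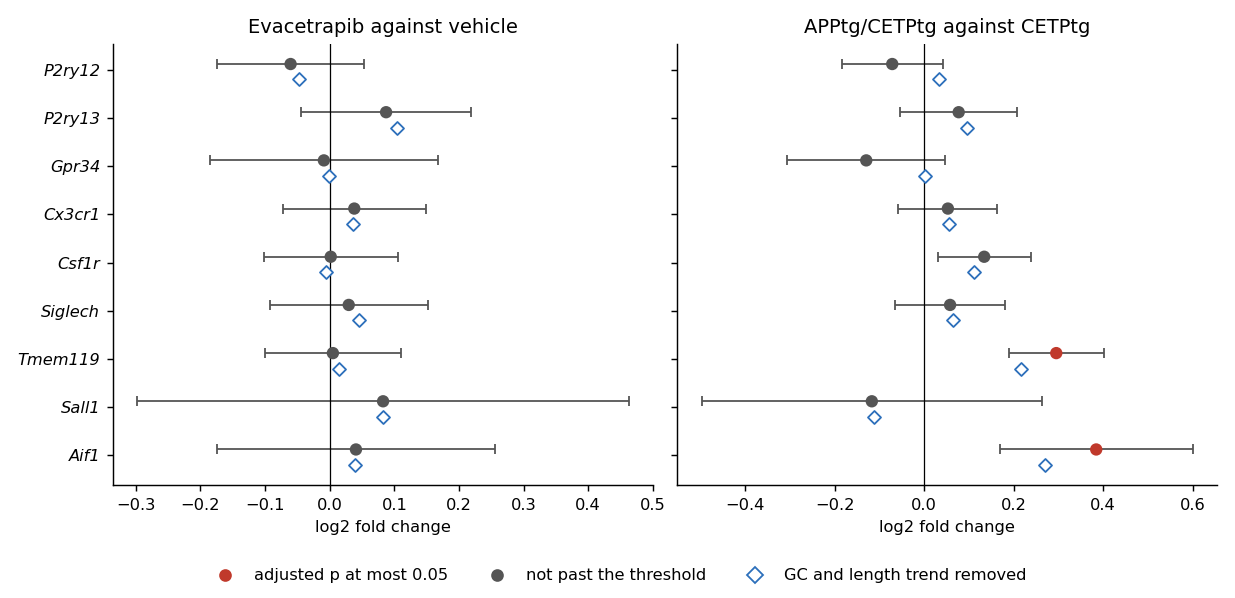
Log2 fold change of each gene for evacetrapib against vehicle over both genotypes (left) and for APPtg/CETPtg against CETPtg over both treatments (right), 8 against 8 mice, on 2 horizontal axes of different range. Circles with bars are the edgeR estimate with its 95% interval, red where the adjusted p was at most 0.05, and open diamonds are the estimates after each mouse's trend with GC content and transcript length was removed. Only Tmem119 and Aif1 in the right panel are red, and the diamonds of P2ry12 and Gpr34 lie at or above 0 where their circles lie below it.

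The second comparison set the genotypes side by side, and asked whether the APP transgene went with other levels of these genes. Over both treatments, Tmem119 was 22.7% higher in APPtg/CETPtg mice, at a log2 fold change of 0.30 ± 0.05 (SE, 8 against 8 mice, adjusted p 0.000645 from edgeR). Aif1 was 30.6% higher, at a log2 fold change of 0.38 ± 0.10 (SE, adjusted p 0.0141). These 2 of the 9 genes rose and 0 fell. Of all genes tested, 17.7% were called in either direction, with 1740 up and 1559 down. The share of the 9 called in either direction was near that background. DESeq2 and limma-voom called 2 of the 9 genes as well. Without mouse S8 the log2 fold change was 0.31 for Tmem119 (adjusted p 0.0013) and 0.33 for Aif1 (adjusted p 0.0357).

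The other 7 genes did not pass. Csf1r came nearest, 9.76% higher in APPtg/CETPtg mice at 0.13 ± 0.05 on the log2 scale (SE, adjusted p 0.0677). P2ry13, Siglech and Cx3cr1 stood at 0.08, 0.06 and 0.05, and Sall1, P2ry12 and Gpr34 at -0.12, -0.07 and -0.13, all on the log2 scale. The median over the 9 genes was 0.06 beside 0.00459 over all genes tested. Without mouse S8 Csf1r stood at 0.11 (adjusted p 0.139). The call of Csf1r depended on single choices, since it passed with library totals in place of TMM (log2 fold change 0.15, adjusted p 0.0435), without the evacetrapib-treated CETPtg mouse B (0.15, adjusted p 0.0397) and without the vehicle-treated APPtg/CETPtg mouse S7 (0.16, adjusted p 0.0315).

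Under vehicle alone, 2 of the 9 genes were called, beside 10.4% of all genes, and the groups of 4 did not overlap for 2, beside 17% of all genes. Both counts refer to Tmem119 and Aif1. Tmem119 had a log2 fold change of 0.25 ± 0.07 (SE, adjusted p 0.0331), and Aif1 one of 0.57 ± 0.14 (SE, adjusted p 0.0145). Both calls were lost without single mice, with log2 fold changes of similar size. Without S8 Tmem119 stood at 0.26 (adjusted p 0.058) and Aif1 at 0.49 (adjusted p 0.0551), and without the vehicle-treated CETPtg mouse S3 they stood at 0.21 (adjusted p 0.115) and 0.54 (adjusted p 0.0508). Tmem119 also missed the threshold without S1 (0.22, adjusted p 0.11), S6 (0.20, adjusted p 0.0996) or S7 (0.24, adjusted p 0.0726). The number of all genes called fell as well, from 1934 to between 909 (without S3) and 1666 (without S7) when 1 mouse was left out.

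Under evacetrapib alone, Tmem119 was the 1 gene called, beside 2.99% of all genes, at a log2 fold change of 0.34 ± 0.07 (SE, adjusted p 0.0171 from edgeR). The groups of 4 did not overlap for 3 of the 9 genes, Cx3cr1, Tmem119 and Aif1, beside 10.8% of all genes. Cx3cr1 had a log2 fold change of 0.16 ± 0.07 (SE, adjusted p 0.2) and Aif1 one of 0.20 ± 0.14 (SE, adjusted p 0.458). Tmem119 missed the threshold without mouse A (0.28, adjusted p 0.0778), C (0.33, adjusted p 0.0529) or G (0.31, adjusted p 0.0536). The 556 genes called among all genes became 91 without mouse A, 206 without F, 223 without C and 858 without B.

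The genotype difference followed the base composition of transcripts across the genome. Over 18583 genes, the log2 fold change between the genotypes had a Spearman rho of 0.38 with GC content and of -0.37 with the length of the longest transcript, as a description across genes that are not independent. The evacetrapib difference had a rho of 0.03 with GC content. The median genotype log2 fold change was -0.10 in the fifth of genes with the lowest GC content and 0.08 in the fifth with the highest, and 0.11 in the fifth with the shortest transcripts and -0.09 in the fifth with the longest.

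The 9 genes are spread over this range. Gpr34 and P2ry12 have 37.1% and 38.6% GC, at percentiles 1.72 and 3.59 of the genes tested, and both had a negative genotype log2 fold change. Tmem119 has 59.1% GC, at percentile 93.3, and Aif1 has the shortest longest transcript of the 9, 875 bases, at percentile 7.86 for length, and both were higher in APPtg/CETPtg mice. Gpr34 and P2ry12 followed the trend with GC content but went against the one with length. They lie at length percentiles 29.9 and 35.3. Genes with a longest transcript of 1589 to 2575 bases, as theirs are, had a median genotype log2 fold change of 0.06. P2ry13, Siglech, Csf1r, Cx3cr1 and Sall1 also each went against 1 of these trends. P2ry13 and Siglech, at GC percentiles 23.7 and 27.8, had positive values, as did Csf1r and Cx3cr1, at length percentiles 77.3 and 74.5, and Sall1, at GC percentile 60.2, had a negative one. When each mouse's trend with GC content and length was removed, a setting chosen after seeing the data, 6.6% of genes were called between the genotypes. Tmem119 remained called, at 0.22 on the log2 scale (adjusted p 0.00409), and Aif1 did not, at 0.27 with an adjusted p of 0.117. The log2 fold change of P2ry12 moved from -0.07 to 0.03, and that of Gpr34 from -0.13 to 0.00132. Under vehicle alone neither Tmem119 (0.16, adjusted p 0.147) nor Aif1 (0.43, adjusted p 0.104) was called after the trend was removed, beside 2.2% of all genes. Under evacetrapib alone Tmem119 was (0.27, adjusted p 0.0335), beside 0.662% of all genes.

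**Figure D3:**
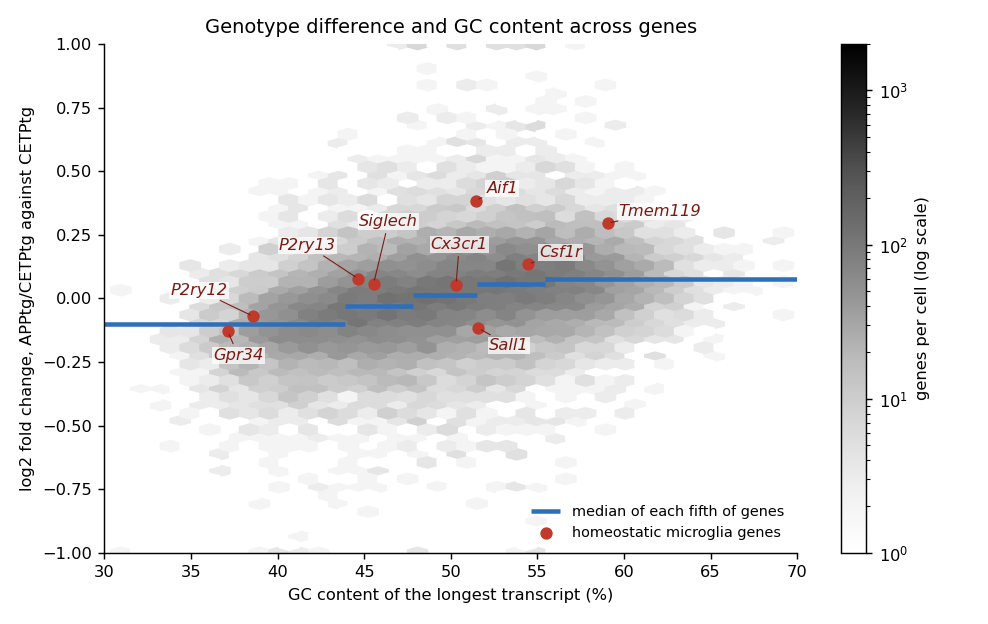
Log2 fold change of APPtg/CETPtg against CETPtg over both treatments (vertical, values beyond 1 in size drawn at the edge) against the GC content of the longest transcript in percent (horizontal) for 18583 genes. Grey cells count genes, on a log scale, blue lines are the medians of 5 equal groups of genes by GC content, from -0.10 to 0.08, and red points are the 9 genes. Tmem119 and Aif1 lie well above the median of their group, and P2ry12 and Gpr34 lie near it.

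Sall1 behaved unlike the other 8 genes. It encodes the zinc finger factor that holds the microglial program, and it is also active outside microglia. Its level was 37.6, 49.0, 46.8 and 54.4 CPM in vehicle-treated and 35.0, 36.7, 34.2 and 53.8 CPM in evacetrapib-treated CETPtg mice. The APPtg/CETPtg mice had 22.3, 56.0, 33.5 and 27.1 CPM under vehicle and 62.3, 29.7, 54.2 and 37.8 CPM under evacetrapib. The highest mouse had 2.79 times the level of the lowest, beside 1.95 times for Aif1, the next widest, and between 1.27 and 1.49 times for the other 7 genes, and every pair of groups overlapped. Sall1 (chr8:89027235-89044162) was called in none of the 7 comparisons, and without mouse S6 its log2 fold change between the genotypes under vehicle passed, at -0.77 (adjusted p 0.0302 from edgeR) beside -0.44 (adjusted p 0.262) with all mice.

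The level of Sall1 followed genes of the olfactory bulb. A set of 7 such genes (Omp, Cdhr1, Doc2g, Eomes, Sall3, Tbx21 and Pcdh20), written down after the values of Sall1 had been seen, summed to between 36.1 CPM in mouse S5, which had the lowest Sall1, and 216 CPM in mouse G. Over the 16 mice the Pearson r between Sall1 and this sum, both in log2, was 0.977, and the Spearman rho was 0.959. It was 0.96 without the 2 mice farthest from the median sum and 0.973 for deviations from the group means. The 8 other genes had an r between -0.38 and 0.20 with the same sum. The genes most like Sall1 over the 16 mice were 6430571L13Rik (r = 0.985), Tshz1 (0.984), Frmd7 (0.984) and Gng4 (0.982), and the r of the other 8 genes with Sall1 lay between -0.29 and 0.15. The part of the olfactory bulb in the levels of Sall1 was not tested.

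**Figure D4:**
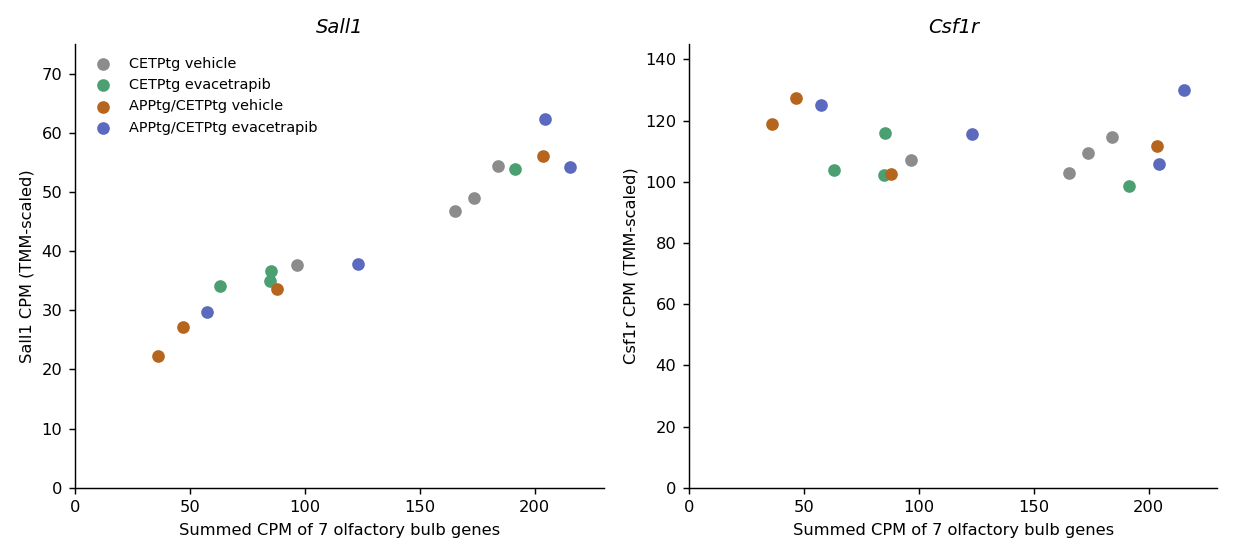
Level of Sall1 (left) and, for comparison, of Csf1r (right), in TMM-scaled CPM, against the summed CPM of 7 olfactory bulb genes in the same mouse, with vertical axes that start at 0. Points are the 16 mice, coloured by group. Sall1 rises from 22.3 CPM in the mouse with the lowest sum to between 53.8 and 62.3 CPM in the 4 mice with the highest sums, while Csf1r stays between 98.6 and 130 CPM.

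Among themselves the 9 genes moved together only loosely. Over 36 pairs, the Pearson r of log2 CPM over the 16 mice had a median of 0.18 and ran from -0.43 to 0.68, with 26 pairs above 0, given as a description of libraries that also share depth and composition. The highest r was that of P2ry12 and Gpr34, at 0.68 (Spearman rho 0.69, and 0.60 for deviations from the group means). Tmem119 and Aif1 followed at 0.65 (rho 0.68), which fell to 0.32 for deviations from the group means. Csf1r and Tmem119 had an r of 0.63, which was 0.31 within groups. Csf1r had an r of 0.62 with Cx3cr1, 0.61 with Siglech and 0.59 with P2ry13, which were 0.61, 0.61 and 0.57 within groups. The neighbours P2ry12 and P2ry13, whose promoter stretches are shown above, had an r of -0.14.

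Removing the trend with GC content and length raised the median r over the 36 pairs from 0.18 to 0.35. The pair Cx3cr1 and P2ry12 moved from 0.37 to 0.67, Csf1r and P2ry12 from -0.08 to 0.40, and P2ry12 and Tmem119 from -0.38 to 0.33. The pairs with Sall1 had a median r of 0.08 before and 0.05 after.

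**Figure D5:**
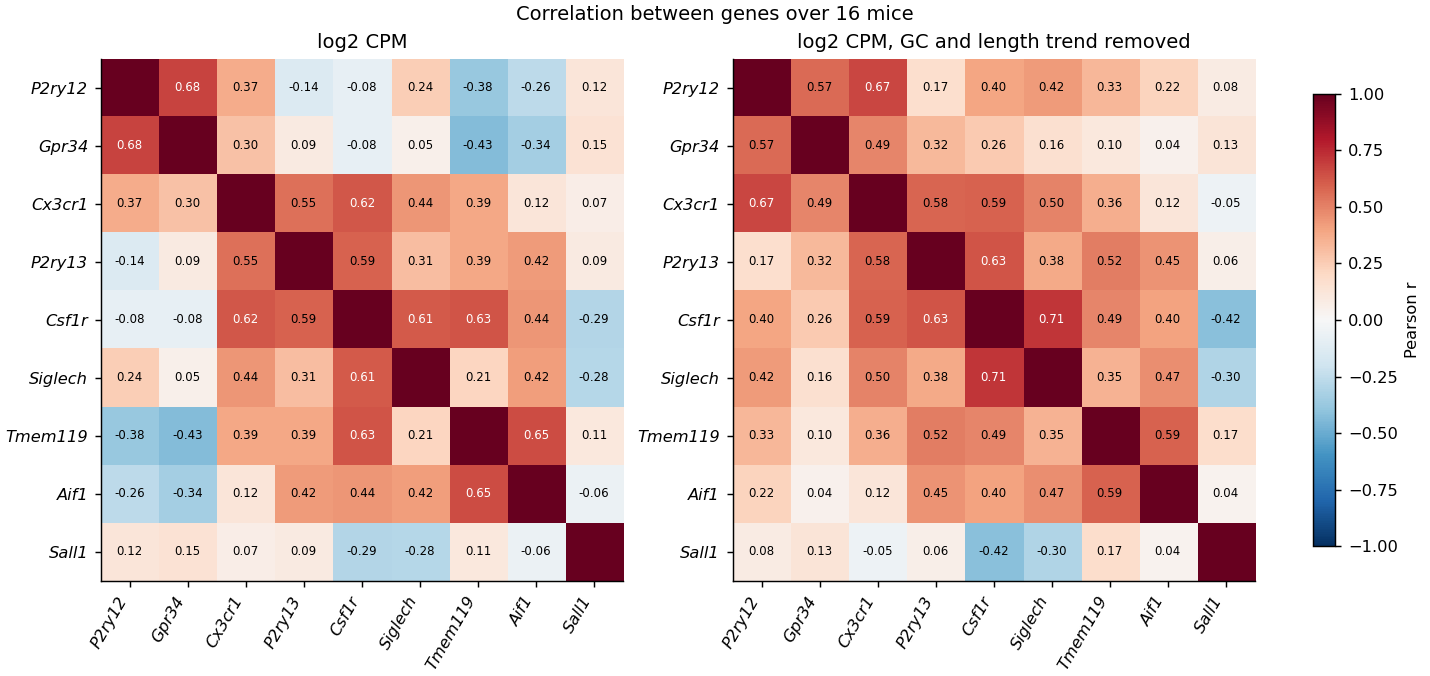
Pearson r between the 9 genes over the 16 mice, for log2 CPM (left) and for log2 CPM after each mouse's trend with GC content and transcript length was removed (right), on a colour scale from -1 to 1. The block of P2ry12 and Gpr34 stands against Tmem119 and Aif1 in the left panel, with r down to -0.43, and no pair outside the row of Sall1 is negative in the right panel.

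The genes whose level was most like the mean z-score of the 9 genes, by Pearson r over the 16 mice and leaving out the 9, were led by Tyrobp (r = 0.824), the adaptor through which TREM2 and related receptors signal. Ltb (0.817), Itgb5 (0.816), Tcn2 (0.788), Usf2 (0.779), Slc39a13 (0.777), Eef2kmt (0.777), Cd300c2 (0.777), AU021092 (0.775) and Tst (0.769) completed the 10. Itgb5 is an integrin subunit that microglia hold at a high level, and Tcn2 encodes the transport protein of vitamin B12. Mouse S8 had the highest mean z-score, 1.03, and mouse S7 of the same group the lowest, -0.83.

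A second list held 15 other genes of resting microglia, and 4 of the 15 rose in APPtg/CETPtg mice while 0 fell, beside the 17.7% of all genes called. Crybb1, a crystallin gene of young microglia, had a log2 fold change of 0.56 ± 0.11 (SE, adjusted p 0.00195), Ltc4s, the leukotriene C4 synthase, one of 0.34 ± 0.11 (adjusted p 0.0429), Selplg, the selectin ligand, one of 0.21 ± 0.05 (adjusted p 0.00525), and Golm1, a Golgi membrane protein, one of 0.15 ± 0.04 (adjusted p 0.00877). The median over the 15 was 0.11 beside 0.00459 over all genes. Fcrls stood at 0.17 (adjusted p 0.116) and Olfml3 at 0.11 (adjusted p 0.338). After the trend with GC content and length was removed, Crybb1, Selplg and Golm1 remained called and Ltc4s did not. Ltc4s also missed the threshold without S8 (adjusted p 0.0684), 1 of 11 single mice whose removal ended its call. Evacetrapib over both genotypes changed 0 of the 15, with a median of 0.03.

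Of the 8 ligands and receptors that hold the resting state, 1 rose between the genotypes and 0 fell, with a median of -0.02, beside 17.7% of all genes called. It was Il34, the neuronal ligand of CSF1R, with a log2 fold change of 0.18 ± 0.04 (SE, adjusted p 0.00429), which was not called once the trend was removed. Csf1, the other ligand, stood at -0.07 (adjusted p 0.415) and Cx3cl1, the fractalkine gene, at 0.03 (adjusted p 0.741). With evacetrapib 0 of the 8 changed, at a median of 0.11, with Cx3cl1 at 0.14 (adjusted p 0.424) and the TGF-beta receptor Tgfbr2 at 0.18 (adjusted p 0.392). Of the 8 transcription factors of microglia, 0 rose and 1, Mef2a, fell between the genotypes, at -0.11 ± 0.04 (SE, adjusted p 0.0484), beside 17.7% of all genes called. Mef2a, which is also active in neurons, was not called once the trend was removed (adjusted p 0.998) or when 1 of 12 mice was left out, S8 among them (adjusted p 0.101). Spi1, which encodes PU.1, stood at 0.09 (adjusted p 0.626) and Irf8 at 0.01 (adjusted p 0.972). The median of the 8 was 0.03 between the genotypes and -0.07 with evacetrapib, which changed 0 of them.

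Among 12 genes shared by microglia and other myeloid cells, 4 rose and 0 fell in APPtg/CETPtg mice, beside 17.7% of all genes called. They were the 3 chains of complement C1q, with C1qb at a log2 fold change of 0.32 ± 0.06 (SE, adjusted p 0.00209), C1qc at 0.22 ± 0.04 (adjusted p 0.00156) and C1qa at 0.22 ± 0.07 (adjusted p 0.0292), and the Fc receptor chain Fcer1g, at 0.29 ± 0.09 (adjusted p 0.0308). After the trend was removed 0 of the 12 were called. C1qa and Fcer1g also missed the threshold without S8 (adjusted p 0.0675 and 0.0732), among 10 and 8 single mice whose removal ended their calls. The median of the 12 was 0.13, and evacetrapib over both genotypes changed 0 of them. Of 18 genes that microglia raise near plaques, 15 were tested, with a median of 0.08, and 1 rose, beside 17.7% of all genes. It was the protease gene Ctsd, at 0.13 ± 0.04 (SE, adjusted p 0.0199), which was lost without D, F or S1 (adjusted p up to 0.0545). Trem2 stood at 0.19 (adjusted p 0.0981) and Apoe at 0.10 (adjusted p 0.157). Cst7 reached at most 0.39 CPM in any mouse, Itgax 1.15 CPM and Clec7a 0.503 CPM. Ctsd was not called once the trend was removed, and evacetrapib over both genotypes changed 0 of the 15.

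Markers of other cells moved in part with the same comparison. Of 8 genes of the macrophages at the borders of the brain, all tested, 1 rose between the genotypes over both treatments, beside 17.7% of all genes, with a median of 0.14. It was Cd163, at a log2 fold change of 0.58 ± 0.11 (SE, adjusted p 0.00129), and it remained called at 0.60 (adjusted p 0.00231) with the trend removed. The summed level of the 8 lay between 32.9 and 36.2 CPM in the 4 evacetrapib-treated APPtg/CETPtg mice and between 25.3 and 30.4 CPM in all 12 other mice. This is the group in which Cx3cr1 was also high. The most abundant of the 8 was Stab1, at 16.9 to 25.2 CPM, which was called between the genotypes under evacetrapib, at 0.35 (adjusted p 0.018), together with Cd163, at 0.72 (adjusted p 0.0175), beside 2.99% of all genes. Leaving out 1 mouse ended the call of Cd163 there in 3 of 8 cases and that of Stab1 in 4 of 8, with mice A and F in both. Among the 8, Ms4a7 was at most at 0.605 CPM and Pf4 at 0.876 CPM, and none of the 8 was at 0 in all mice. Border macrophages express Csf1r, Cx3cr1 and Aif1 as well, and their part in the levels of these genes was not tested.

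Of 9 blood genes 5 were tested and 0 were called between the genotypes over both treatments, beside 17.7% of all genes. Their summed level ran from 57.0 to 225 CPM, most of it Hbb-bs and Hba-a1. Between the genotypes, the myelin genes Mobp and Mbp of oligodendrocytes fell, as did 2 of 6 astrocyte genes (Slc1a2 and Gja1), 1 of 3 genes of oligodendrocyte precursors (Pdgfra) and 1 of 6 endothelial genes (Slco1a4), while 0 of 8 neuronal, 0 of 6 mural and 0 of 5 choroid plexus genes were called, beside 17.7% of all genes. With the trend removed Mobp and Slc1a2 remained called, and Mbp, Gja1, Pdgfra and Slco1a4 did not. The median log2 fold change of the oligodendrocyte genes was -0.198 before and -0.203 after the removal. That of the astrocyte genes was -0.156 before and -0.089 after, and that of the precursor genes -0.144 and -0.11. Mbp, Slco1a4 and Pdgfra also missed the threshold in 9, 8 and 2 of the 16 fits that left out 1 mouse. Slc1a2, the glutamate transporter of astrocytes, fell by 0.35 on the log2 scale (SE 0.05, adjusted p 0.000275), and Mobp fell by 0.23 (SE 0.06, adjusted p 0.00821). Under vehicle alone, where Tmem119 and Aif1 were also called, 4 of the 6 astrocyte genes fell (Slc1a2, Gja1, Slc1a3 and the water channel gene Aqp4), with a median log2 fold change of -0.24 over the 6, beside 10.4% of all genes called. With the trend removed 0 of these 6 were called under vehicle. The log2 fold changes were then -0.26 for Aqp4, -0.22 for Slc1a2, -0.20 for Gja1 and -0.16 for Slc1a3. Gfap and Aldh1l1 stood at -0.02 and 0.01. Leaving out 1 of the 8 mice ended the call of Aqp4 in 5 cases, S8 among them. It ended that of Slc1a3 in 4 cases, of Gja1 in 2 and of Slc1a2 in 0. CPM are shares of a total, and the part of these falls in the rise of Tmem119 and Aif1 was not tested. With evacetrapib over both genotypes, the 1 gene that edgeR called in all these lists was Myh11 of smooth muscle, beside 0.0107% of all genes. Its log2 fold change was 0.56 ± 0.08 (SE, adjusted p 0.0193 from edgeR). All 6 endothelial and all 6 mural genes had values above 0, with medians of 0.30 and 0.36. The study's own DESeq2 comparison reports Myh11 among its changed genes, together with Tagln, Acta2, Pecam1, Flt1 and Cdh5. Here Tagln, Acta2, Pecam1, Flt1 and Cdh5 were not called with edgeR (adjusted p 0.129 to 0.173). The call of Myh11 was lost in 9 of the 16 fits that left out 1 mouse (log2 fold change 0.52 to 0.60, adjusted p up to 0.0757). The choroid plexus gene Ttr ran from 0.705 to 427 CPM. The 5 choroid plexus genes summed to 460 CPM in S8, the highest of all mice, and to 162 CPM in S3, the next highest. The part of this tissue in the levels of S8 was not tested.

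The genes that surround P2ry12, P2ry13 and Gpr34 are given for their position, and whether reads were shared at these loci was not tested. Med12l, at 35.0 to 47.1 CPM, shares 9 exon bases with P2ry12 and 0 with P2ry13, and Cask, at 79.2 to 101 CPM, shares 0 with Gpr34. Both fell in APPtg/CETPtg mice, Med12l by 0.17 (SE 0.05, adjusted p 0.0153) and Cask by 0.15 (SE 0.04, adjusted p 0.0129) on the log2 scale, and neither was called once the trend was removed. The receptor gene P2ry14 at the same locus of chromosome 3 lay at 1.44 to 2.55 CPM. It was not called, with a genotype log2 fold change of 0.09 (adjusted p 0.696). Igsf10, of the same list, was not called either, at -0.29 (adjusted p 0.0517 from edgeR). Gpr171 and Gpr82 did not pass the filter, with at most 0.113 and 0.0755 CPM.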

How the data were processed

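RNA from brain tissue of 16 mice was sequenced. Per the labels and the methods of the study, the authors enriched poly(A) RNA, made directional libraries, trimmed read pairs with Trimmomatic 0.39, aligned them to mm10 with STAR 2.7.8a and summarised them by gene in HTSeq-count. The submitters' processing notes also name Picard 2.0.1, StringTie 1.3.5 and DESeq2. The table they deposited holds read counts, whole numbers that were not normalized. The annotation and the strand setting are not given in the sources used here. All value columns were mapped to a mouse (0 left out). The study's methods describe littermates, but the labels do not tie a mouse to a litter or a day, so p-values measure the spread between these mice.

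The test covered 18609 genes, those that reached 10 counts in 4 mice or more. Counts were scaled by TMM and compared, two-sided, by quasi-likelihood in edgeR 4.0.16 (R 4.3.3), with Benjamini-Hochberg adjustment over all genes. Evacetrapib and vehicle were compared over both genotypes with a genotype term, and the genotypes over both treatments with a treatment term. A further fit, in which every group had its own mean, gave the comparisons within a genotype or a treatment and the difference of the evacetrapib effects. Log2 CPM used a prior count of 2, and levels between genes were compared per kb of the union of exons. Positions, exon lengths, GC content and transcript lengths came from GENCODE M21 (GRCm38), in which 55227 of 55487 identifiers were found. Promoter sequences came from RefSeq on GRCm38.p6. The fit was tested on simulated counts.

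Named genes were the 9 members, the genes of 16 lists, and the 10 other genes with the highest r to the mean z-score of the members. Genes of the olfactory bulb and those most like Sall1 were chosen after its values were seen. The members and lists were chosen with earlier results of these data known, so no p was adjusted over a list. Alternatives were the size factors of DESeq2 1.42.0, library totals, no filter, at least 10 counts in every mouse, the Wald test of DESeq2, voom from limma 3.58.1, other model terms, only the 8 mice compared, each mouse left out, and 2 settings added after seeing the data (replicate numbers of the table as a block, and removal of each mouse's trend with GC content and transcript length by a spline). Libraries of a group differed beyond sampling noise in all 24 pairs (chi-square over its degrees of freedom at least 4.44). Columns of the authors' own comparisons were not part of the table. Some genes of the lists are not reported here by name.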

Additional observations from a re-analysis of the deposited data

Results flagged for a closer look

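Of 36 sets of 4 mice (9 genes in 4 groups), 3 held a mouse far from the others, with a gap to its nearest neighbour, as a share of the range of its group, above Dixon's critical value for 4 samples, and chance alone gives about 5% of such sets. P2ry12 was at 28.4 CPM in the vehicle-treated APPtg/CETPtg mouse S8, with a gap of 0.901 of the range. Sall1 was at 53.8 CPM in the evacetrapib-treated CETPtg mouse D, with a gap of 0.874 of the range, and the 7 olfactory bulb genes summed to 192 CPM in this mouse beside at most 85.4 CPM in the other 3 mice. Aif1 was at 3.26 CPM in the evacetrapib-treated CETPtg mouse A, below the other 3 mice, with a gap of 0.907 of the range.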

How the results depend on the processing

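The count of the 9 genes called was 0 for evacetrapib over both genotypes, within each genotype and for the difference between the genotypes, under every alternative run. Between the genotypes over both treatments it was 2, and 2 to 3 with a mouse left out, and 1 with the trend with GC content and length removed. Under vehicle it was 2, 0 to 2 with a mouse left out, and 0 with the trend removed. Under evacetrapib it was 1, and 0 to 1 with a mouse left out. Tmem119 was called between the genotypes over both treatments in all 25 alternatives (log2 fold change 0.22 to 0.32), and Aif1 in 24 of 25 (0.27 to 0.43). No called value changed sign. The count of all genes called between the genotypes over both treatments was 3299, 3719 with the Wald test of DESeq2, 2752 with no filter and 1226 with the trend removed; under evacetrapib it was 556, 91 to 858 with a mouse left out, 1135 with the Wald test and 123 with the trend removed; for evacetrapib over both genotypes it was 2, 59 with the Wald test and 35 with no filter, and 0 to 8 with a mouse left out, and within APPtg/CETPtg mice 8, 73, 88 and 0 to 14. Group means of the 9 genes moved by at most 0.29% with the size factors of DESeq2 and by -1.19% to 1.35% with library totals. Replicate numbers of the table as a block left the number of the 9 genes called at 2 between the genotypes and at 0 for evacetrapib. Deviations of same-numbered mice had r from -0.20 to 0.17 over 24 pairs, so the numbers were not taken as pairs. Aif1, with 83 to 283 counts per mouse, has the widest counting error of the 9.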
